A study of Mus musculus with 16 samples.

Results

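CXC chemokines are small secreted proteins that attract leukocytes, and 8 of their genes were followed in myeloid cells of a mouse tumour: Cxcl1, Cxcl2, Cxcl3, Cxcl9, Cxcl10, Cxcl14, Cxcl16 and Pf4, which encodes Cxcl4. They were found by gene symbol and are 8 of the 15 CXC chemokine genes among the 24421 genes of the count files. The choice of these 8 was made with earlier results of these data known. The study asked how CD11b+ cells change with the time they spend in a tumour, using MC38-Ova colorectal tumours grown under the skin of mice that express the photoconvertible protein Kaede. Violet light shone on the tumour turned the Kaede of cells inside it from green to red, so Kaede-red cells had been in the tumour since the light, and Kaede-green cells had arrived afterwards. Live cells that carried Kaede, CD11b and CD45 and lacked NK1.1 and TER119 were sorted at 24h or 72h after photoconversion for bulk RNA sequencing of total RNA. The 4 groups were Kaede-green 24h, Kaede-red 24h, Kaede-green 72h and Kaede-red 72h, with 4 libraries each and 16 in all.

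All 16 libraries carried the genotype C57BL/6, a treatment label of control with no agent, and the same batch label. The labels gave neither age nor sex, whereas the methods describe the mice as female and give a range of weeks for their age at sacrifice. Kaede-green cells sorted at 72h could have entered the tumour at any point after the light, so their group holds cells of mixed ages. The study's supplement describes the bulk samples as tumours of separate mice, and whether Kaede-green and Kaede-red libraries of the same number share a tumour is not stated in the sources used here. In a bulk library, fewer cells of a type and less RNA per cell cannot be told apart.

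Cxcl1, Cxcl2 and Cxcl3 carry the Glu-Leu-Arg (ELR) motif and attract neutrophils through the receptor Cxcr2. Cxcl9 and Cxcl10 are induced by interferons and attract activated T and NK cells through Cxcr3, whereas Cxcl16 is made as a membrane-bound protein and binds Cxcr6. Pf4 is best known as a product of platelets and megakaryocytes and is also transcribed in some macrophages, and Cxcl14 is a chemokine made mainly by epithelial and stromal cells.

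The libraries held between 3216858 and 15423085 counts in genes. The group medians were 6365134 for Kaede-green 24h, 4350493 for Kaede-red 24h, 5979306 for Kaede-green 72h and 12160284.5 for Kaede-red 72h. Most of these counts fell on 1 entry, Rn45s, the precursor of ribosomal RNA. It took 79.0% to 93.4% of counts in the Kaede-green libraries and 55.8% to 84.9% in the Kaede-red libraries, and the 4 Kaede-red 24h libraries split into a pair at 66.2% and 68.2% and a pair at 83.1% and 84.9%. Counts outside Rn45s therefore numbered 468092 to 912689 in Kaede-green and 758192 to 5472477 in Kaede-red libraries. Levels are given as CPM, the counts of a gene set against the total of its library on a fixed scale, after scaling by the trimmed mean of M-values (TMM), in which a CPM of 1 stood for 1.79 to 4.11 counts in Kaede-green and 5.51 to 47.5 counts in Kaede-red libraries. Low CPM values were thus less precise in Kaede-green cells.

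The summed CPM of the 8 genes was 184 ± 28.8 in Kaede-green 24h (SD, n = 4), 199.9 ± 18.1 in Kaede-red 24h, 154 ± 33.6 in Kaede-green 72h and 205 ± 16.5 in Kaede-red 72h. Of the 8 genes, 7 passed the filter on low counts and were tested among 9642 genes, and Cxcl14 was not tested. Cxcl1, Cxcl3 and Pf4 passed this filter only through the Kaede-red groups, and in a fit of the Kaede-green groups alone they were not tested.

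**Figure D1:**
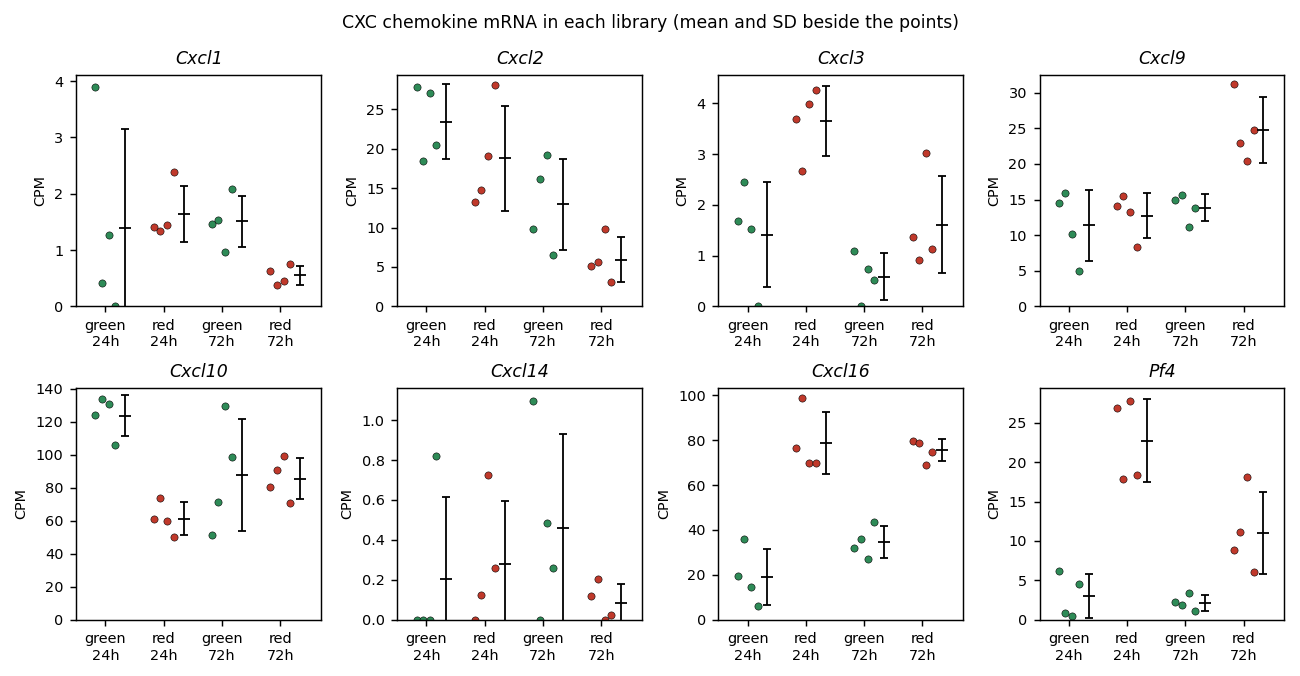
Level of each of the 8 CXC chemokine genes in CPM (y axis, from 0) in the 16 libraries, grouped by Kaede fluorescence and time (x axis, 4 libraries per group). Points are libraries, and the mean and SD stand beside them, with SD bars that would pass below 0 ending at the axis; every Kaede-red library lies above every Kaede-green library for Cxcl16, and Cxcl10 is lower in all Kaede-red than in all Kaede-green libraries at 24h on this TMM scale, a direction that turns when libraries are scaled by their size alone.

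Of the 8 genes, 6 lie on chromosome 5 (build mm10, which is GRCm38; GENCODE M21 annotation). Pf4 (90772435 to 90773383), Cxcl3 (90786103 to 90789600), Cxcl1 (90891241 to 90893115) and Cxcl2 (90903871 to 90905938) follow each other there on the plus strand, and Cxcl9 (92321347 to 92328079) and Cxcl10 (92346638 to 92348889) lie further along on the minus strand. Cxcl14 is on chromosome 13 (56288643 to 56296551, minus strand) and Cxcl16 on chromosome 11 (70453983 to 70459984, minus strand). Cxcl10 overlaps Art3, which is on the other strand and had 0 to 1.64 CPM, and Cxcl16 overlaps Zmynd15, likewise on the other strand, with 0 to 4.81 CPM. Whether the counting used strand is not given in the sources used here, so reads of these overlapping pairs may not have been told apart. Transcripts of Cxcl2 and Cxcl3 share 61 stretches of 50 bases, and whether reads were ambiguous between these genes was not tested, whereas Cxcl1 shares 0 such stretches with Cxcl2 and 0 with Cxcl3.

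The 250 bases before the transcription start were searched on both strands in 7 of the 8 genes, in the promoter sequences of RefSeq (GRCm38.p6). The searched patterns were the NF-kB consensus, a binding pattern of a family of inflammatory transcription factors, the core of the interferon-stimulated response element (ISRE, GAAANNGAA) and the interferon gamma activated site (GAS, TTCNNNGAA). Among all 32851 promoters, 7.25% held an NF-kB match, 7.13% an ISRE core and 7.02% a GAS. The NF-kB consensus was matched in Cxcl1, Cxcl2, Cxcl3 and Cxcl10, the ISRE core in Cxcl9, Cxcl10 and Cxcl14, and the GAS in Cxcl14, and none of the 3 patterns was matched in Pf4. A match describes letters in this window and is not evidence of binding, and its absence says nothing about the factor. Cxcl16 has no entry in the promoter table.

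The 3 ELR chemokine genes are shown first, because all of them hold the same 10 letters that match the NF-kB consensus. These lie 71 bases before the RefSeq start in Cxcl1 (90891245), 97 in Cxcl2 (90903899) and 73 in Cxcl3 (90786101). For these 3 genes the RefSeq starts differ from the GENCODE starts given above. The match reads on the opposite strand too, shifted by 1 base, and the capitals mark it between 10 bases on each side, on the plus strand of chromosome 5 from 90891164 to 90891193 (Cxcl1), 90903792 to 90903821 (Cxcl2) and 90786018 to 90786047 (Cxcl3).

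Cxcl1: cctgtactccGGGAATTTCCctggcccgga
Cxcl2: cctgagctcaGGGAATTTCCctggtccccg
Cxcl3: gagctgcgggGGGAATTTCCccagcccggg

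Cxcl2 had the highest level of these 3 genes per kb of transcript in each group. Its CPM in replicates 1 to 4 was 27.9, 18.4, 27.0 and 20.4 in Kaede-green 24h, 13.2, 14.7, 19.1 and 28.1 in Kaede-red 24h, 9.87, 16.2, 19.2 and 6.50 in Kaede-green 72h, and 5.13, 5.67, 9.83 and 3.10 in Kaede-red 72h. All 4 Kaede-red 72h libraries lay below all 4 Kaede-red 24h libraries, whereas the Kaede-green and Kaede-red libraries overlapped at each time. The means were 23.4 ± 4.71, 18.8 ± 6.71, 12.9 ± 5.80 and 5.93 ± 2.83 CPM (SD, n = 4). Cxcl2 was lower in Kaede-red than in Kaede-green cells at 72h, by 1.21 ± 0.32 (SE) on the log2 scale or 2.32-fold (log2 fold change −1.21, edgeR quasi-likelihood test, Benjamini-Hochberg adjusted p = 0.00691), a direction that turned to 0.79 with scaling by library size alone. It also fell in Kaede-red cells between 24h and 72h, by 3.35-fold (log2 fold change −1.75 ± 0.30, edgeR quasi-likelihood, Benjamini-Hochberg adjusted p = 0.000978), with the same sign under each scaling tried, although it did not pass with library size alone (−1.29, adjusted p = 0.312).

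At 24h Cxcl2 in Kaede-red against Kaede-green cells differed by −0.31 on the log2 scale and did not pass the test (edgeR quasi-likelihood, Benjamini-Hochberg adjusted p = 0.610), and turned positive with library size alone (1.87). Over both times the difference was −0.76 ± 0.22 (edgeR quasi-likelihood, Benjamini-Hochberg adjusted p = 0.0118), or 1.33 with library size alone. The 72h call was lost without Kaede-green 72h replicate 3 (log2 fold change −0.95, edgeR quasi-likelihood, Benjamini-Hochberg adjusted p = 0.0619). With the Rn45s share of each library as a covariate the differences were 0.08 at 72h (adjusted p = 0.982) and 0.34 over both times (adjusted p = 0.785), and the fall in Kaede-red cells was −1.15 (adjusted p = 0.0208). With Kaede-red 24h represented by replicates 3 and 4 alone the difference over both times was −0.58 (adjusted p = 0.117), and by replicates 1 and 2 alone the fall in Kaede-red cells was −1.34 (adjusted p = 0.108).

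Cxcl1 and Cxcl3 were near the limit of detection. Cxcl1 had 176 counts in all 16 libraries and ranged from 0 to 3.90 CPM in Kaede-green 24h, 1.34 to 2.39 in Kaede-red 24h, 0.973 to 2.08 in Kaede-green 72h and 0.378 to 0.758 in Kaede-red 72h. Every Kaede-red 72h library was thus below every Kaede-red 24h and every Kaede-green 72h library. The difference between the Kaede-red groups was −1.54 ± 0.56 and did not pass the test (edgeR quasi-likelihood, Benjamini-Hochberg adjusted p = 0.0834), nor did the difference of −1.39 ± 0.63 between Kaede-red and Kaede-green at 72h (adjusted p = 0.131), which turned to 0.64 with library size alone. The first passed in DESeq2 (−1.61, adjusted p = 0.0120), with Kaede-green 24h replicate 4 left out (−1.56, adjusted p = 0.0404) and in a fit of the 2 Kaede-red groups alone (−1.54, adjusted p = 0.0219), and the second passed in DESeq2 (−1.45, adjusted p = 0.0404).

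Cxcl3 had 320 counts in all, with 0 to 2.46 CPM in Kaede-green 24h, 2.68 to 4.26 in Kaede-red 24h, 0 to 1.10 in Kaede-green 72h and 0.908 to 3.02 in Kaede-red 72h. At 24h its Kaede-red libraries all lay above its Kaede-green libraries, and at 72h the ranges overlapped. Unlike Cxcl2, Cxcl3 was higher in Kaede-red cells over both times, by 1.35 ± 0.45 (edgeR quasi-likelihood, Benjamini-Hochberg adjusted p = 0.0301), with the same sign under each scaling tried. With 23 counts in Kaede-green against 297 in Kaede-red libraries, Cxcl3 passed the filter on low counts only through the Kaede-red groups. Its tests by fluorescence are to be read with that limit. Neither time passed alone, with 1.37 ± 0.59 for the 24h groups (adjusted p = 0.169) and 1.34 ± 0.68 for those of 72h (adjusted p = 0.185). The call over both times was lost without Kaede-green 24h replicate 4 (1.13, adjusted p = 0.0501), Kaede-red 24h replicate 4 (1.32, 0.0503), Kaede-green 72h replicate 2 (1.14, 0.0745) or Kaede-red 72h replicate 3 (1.18, 0.0578). It was also lost with the Rn45s covariate (1.80, adjusted p = 0.209) and with Kaede-red 24h represented by replicates 3 and 4 alone (1.47, 0.0547) or 1 and 2 alone (1.27, 0.0842). From 24h to 72h in Kaede-red cells the change was −1.31 ± 0.47 (edgeR quasi-likelihood, Benjamini-Hochberg adjusted p = 0.0798). That change passed in DESeq2 (−1.36, adjusted p = 0.0181), in the 2 Kaede-red groups alone (−1.37, 0.0107), and when either Kaede-green 24h replicate 4 (−1.35, 0.0295) or Kaede-red 72h replicate 3 (−1.67, 0.0335) was left out.

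The whole searched window is printed for the 2 Cxcr3 ligands, because these neighbouring genes differ in what was matched. Cxcl9 held 1 ISRE core, 175 bases before its start, and Cxcl10 held an ISRE core 213 bases before its start and NF-kB matches at 159 and at 104 and 103 bases, the last of which also read on the opposite strand. Capitals mark the ISRE core in both and the NF-kB matches in Cxcl10. The windows lie on the minus strand of chromosome 5, from 92328080 to 92328329 for Cxcl9 and from 92348890 to 92349139 for Cxcl10.

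Cxcl9: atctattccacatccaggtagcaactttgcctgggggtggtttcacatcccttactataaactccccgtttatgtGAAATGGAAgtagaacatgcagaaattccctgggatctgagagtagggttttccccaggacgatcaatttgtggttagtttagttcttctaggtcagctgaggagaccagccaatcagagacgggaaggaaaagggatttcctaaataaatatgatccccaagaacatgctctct
Cxcl10: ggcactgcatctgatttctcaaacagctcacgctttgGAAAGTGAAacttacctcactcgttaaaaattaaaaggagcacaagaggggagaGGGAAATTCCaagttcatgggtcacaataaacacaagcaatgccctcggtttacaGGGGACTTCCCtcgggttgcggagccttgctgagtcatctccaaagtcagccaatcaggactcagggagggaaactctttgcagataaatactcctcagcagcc

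Cxcl10 had the highest level of the 8 genes per kb of transcript in each group. Its CPM in replicates 1 to 4 was 124, 134, 131 and 106 in Kaede-green 24h, 61.2, 74.1, 59.7 and 49.9 in Kaede-red 24h, 51.5, 71.1, 129 and 98.6 in Kaede-green 72h, and 80.3, 90.9, 99.4 and 70.9 in Kaede-red 72h. At 24h the 4 Kaede-red libraries all lay below the lowest Kaede-green library, while at 72h the Kaede-green libraries spread widely and enclosed the Kaede-red ones. The means were 124 ± 12.5, 61.2 ± 9.91, 87.7 ± 33.9 and 85.4 ± 12.4 CPM (SD, n = 4). Cxcl10 was 2.02-fold lower in Kaede-red than in Kaede-green cells at 24h (log2 fold change −1.02 ± 0.22, edgeR quasi-likelihood, Benjamini-Hochberg adjusted p = 0.00273), a direction that turned to 1.33 with library size alone.

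At 72h the Cxcl10 difference was −0.05 (edgeR quasi-likelihood, Benjamini-Hochberg adjusted p = 0.920), or 1.80 with library size alone. The change of the difference between 24h and 72h was 0.97 ± 0.31 and did not pass the test (adjusted p = 0.107), although it did with replicate blocks within each time point (1.05, adjusted p = 0.0382). Over both times Cxcl10 was lower in Kaede-red cells by 0.53 ± 0.15 on the log2 scale (log2 fold change −0.53, edgeR quasi-likelihood, Benjamini-Hochberg adjusted p = 0.0126), or higher by 1.56 with library size alone. The latter call was lost without a filter on low counts (−0.42, adjusted p = 0.0600), with the Rn45s covariate (−0.67, 0.272) and with Kaede-red 24h represented by replicates 1 and 2 alone (−0.45, 0.0651). The 24h call kept its side in every fit that left out 1 library (log2 fold change from −1.11 to −0.93) and with the Rn45s covariate (−1.14, adjusted p = 0.0319), and was lost with replicates 1 and 2 of Kaede-red 24h alone (−0.86, 0.0690).

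Cxcl9, which had a lower level per kb than Cxcl10 in each group, was highest in cells retained for 72h. Its CPM in replicates 1 to 4 was 14.5, 15.98, 10.2 and 4.91 in Kaede-green 24h, 14.1, 15.4, 13.2 and 8.27 in Kaede-red 24h, 15.0, 15.6, 11.2 and 13.8 in Kaede-green 72h, and 31.2, 22.9, 20.4 and 24.7 in Kaede-red 72h. The 4 Kaede-red 72h libraries stood above all 12 others, and the other 3 groups overlapped, with means of 11.4 ± 4.97, 12.8 ± 3.12, 13.9 ± 1.94 and 24.8 ± 4.63 CPM in the order given (SD, n = 4). Cxcl9 was 1.80-fold higher in Kaede-red than in Kaede-green cells at 72h (log2 fold change 0.85 ± 0.25, edgeR quasi-likelihood, Benjamini-Hochberg adjusted p = 0.0164). It rose 1.97-fold in Kaede-red cells from 24h to 72h (0.97 ± 0.24, edgeR quasi-likelihood, Benjamini-Hochberg adjusted p = 0.0101). Both directions held under each scaling tried. At 24h the difference was 0.17 (adjusted p = 0.778), and the change of the difference between the times, 0.68 ± 0.37, did not pass (adjusted p = 0.388).

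These Cxcl9 calls were close to the threshold. The 72h call was lost without Kaede-green 72h replicate 3 (0.74, edgeR quasi-likelihood with Benjamini-Hochberg adjusted p = 0.0755) or Kaede-red 72h replicate 1 (0.72, adjusted p = 0.0812), and with the Rn45s covariate (0.44, adjusted p = 0.813). The rise in Kaede-red cells was lost without Kaede-red 24h replicate 4 (0.80, 0.0691) or Kaede-red 72h replicate 1 (0.84, 0.0657), with the Rn45s covariate (0.81, 0.115), with library size alone (1.30, 0.295) and with replicates 1 and 2 of Kaede-red 24h alone (0.72, 0.337). Over both times the difference of 0.51 ± 0.18 just passed (adjusted p = 0.0469), with RLE factors it was 0.48 (0.0579), without Rn45s 0.48 (0.0560), with the Rn45s covariate 0.15 (0.934) and with replicates 3 and 4 of Kaede-red 24h alone 0.40 (0.232). Leaving out 1 library gave 0.37 to 0.61 and lost this call in 12 of 16 fits. The adjusted p was 0.102 and 0.114 without Kaede-green 24h replicates 3 and 4; 0.0825, 0.0995 and 0.0658 without Kaede-red 24h replicates 1, 2 and 3; 0.0577, 0.0613, 0.108 and 0.0556 without Kaede-green 72h replicates 1 to 4; and 0.113, 0.0595 and 0.0652 without Kaede-red 72h replicates 1, 2 and 4.

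Cxcl16, the ligand of Cxcr6, was the only tested member whose libraries separated by Kaede fluorescence over both times. Its CPM in replicates 1 to 4 was 19.5, 36.1, 14.5 and 6.13 in Kaede-green 24h, 76.7, 98.8, 69.9 and 70.0 in Kaede-red 24h, 31.8, 36.0, 27.2 and 43.7 in Kaede-green 72h, and 79.5, 78.9, 68.8 and 74.9 in Kaede-red 72h. All 8 Kaede-red libraries were above all 8 Kaede-green libraries, a separation over both times that 1.19% of the 9642 genes showed, and the Kaede-red libraries of both times overlapped. The means were 19.1 ± 12.6, 78.8 ± 13.7, 34.7 ± 6.995 and 75.5 ± 4.93 CPM (SD, n = 4). Cxcl16 was 4.17-fold higher in Kaede-red cells at 24h (log2 fold change 2.06 ± 0.28, edgeR quasi-likelihood, Benjamini-Hochberg adjusted p = 1.14e-05) and 2.18-fold higher at 72h (1.12 ± 0.26, adjusted p = 0.00267), with the same sign under each scaling tried. Over both times the difference was 3.01-fold (1.59 ± 0.19, edgeR quasi-likelihood, Benjamini-Hochberg adjusted p = 2.42e-07).

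Leaving out any 1 library kept all 3 of these Cxcl16 calls, with log2 fold changes of 1.76 to 2.57 at 24h, 1.00 to 1.27 at 72h and 1.43 to 1.84 over both times. With the Rn45s covariate the difference was 1.69 at 24h (edgeR quasi-likelihood, Benjamini-Hochberg adjusted p = 0.00257) and 1.16 over both times (adjusted p = 0.0304), and the 72h call was lost (0.63, adjusted p = 0.677). Between 24h and 72h the log2 fold change of Cxcl16 was 0.88 ± 0.29 in Kaede-green cells (adjusted p = 0.401) and −0.06 in Kaede-red cells (adjusted p = 0.921, or 0.30 with library size alone), and neither passed. The change of the red-green difference, −0.94 ± 0.38, did not pass either (adjusted p = 0.229).

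Pf4 showed the largest fold of the 7 tested genes. Its CPM in replicates 1 to 4 was 6.13, 0.819, 0.510 and 4.50 in Kaede-green 24h, 26.9, 17.9, 27.8 and 18.4 in Kaede-red 24h, 2.19, 1.83, 3.41 and 1.04 in Kaede-green 72h, and 8.81, 11.1, 18.1 and 6.02 in Kaede-red 72h. Kaede-red libraries were above Kaede-green libraries at each time, although Kaede-red 72h replicate 4 lay just below Kaede-green 24h replicate 1. The means were 2.99 ± 2.77, 22.7 ± 5.31, 2.12 ± 0.984 and 11.0 ± 5.19 CPM (SD, n = 4), and the values rested on 2 to 14 counts per Kaede-green library against 120 to 442 per Kaede-red library. Pf4 thus passed the filter on low counts only through the Kaede-red groups, where it was high. Its tests by fluorescence are to be read with that limit. Pf4 was 8.70-fold higher in Kaede-red cells at 24h (log2 fold change 3.12 ± 0.44, edgeR quasi-likelihood, Benjamini-Hochberg adjusted p = 1.63e-05) and 4.98-fold higher at 72h (2.32 ± 0.43, adjusted p = 0.000252), with the same sign under each scaling tried. Over both times the fold was 6.59 (2.72 ± 0.31, edgeR quasi-likelihood, Benjamini-Hochberg adjusted p = 9.38e-08).

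These 3 Pf4 calls held in each of the 16 fits that left out 1 library, with log2 fold changes of 2.62 to 3.67, 2.03 to 2.69 and 2.46 to 2.99, and with the Rn45s covariate, at 3.65 (edgeR quasi-likelihood, Benjamini-Hochberg adjusted p = 7.04e-05), 2.94 (adjusted p = 0.00460) and 3.30 (adjusted p = 5.20e-05). Within Kaede-red cells Pf4 fell from 24h to 72h (log2 fold change −1.08 ± 0.32, edgeR quasi-likelihood, Benjamini-Hochberg adjusted p = 0.0307), although the libraries of both times overlapped. This fall was less secure than the differences by fluorescence. It was lost without Kaede-red 24h replicate 1 (−0.98, adjusted p = 0.0763), 3 (−0.96, 0.128) or 4 (−1.17, 0.0512) and without Kaede-red 72h replicate 1 (−0.99, 0.125), 2 (−1.10, 0.0709) or 4 (−0.87, 0.136). It was also lost in DESeq2 (−1.10, adjusted p = 0.0518), with library size alone (−0.80, 0.512), with the Rn45s covariate (−0.85, 0.206) and with replicates 3 and 4 (−1.07, 0.0908) or 1 and 2 (−1.10, 0.268) of Kaede-red 24h alone. In Kaede-green cells the change was −0.28 (adjusted p = 0.930), or 0.35 with library size alone, and the change of the red-green difference was −0.80 (adjusted p = 0.607).

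Cxcl14 had 29 counts in all 16 libraries, was at 0 in 6 of them and reached at most 1.10 CPM. It did not pass the filter on low counts, so a difference between groups was not tested.

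**Figure D2:**
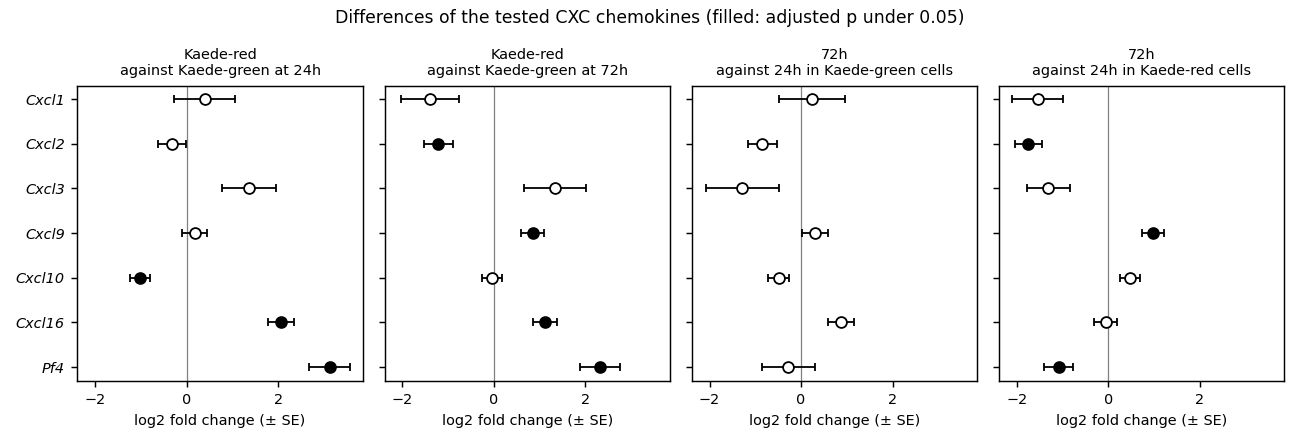
Log2 fold change with its SE (x axis) of the 7 tested CXC chemokine genes (y axis) in 4 comparisons, 2 of Kaede-red against Kaede-green cells (24h, 72h) and 2 of 72h against 24h (Kaede-green, Kaede-red). Filled points passed at an adjusted p under 0.05; Pf4 and Cxcl16 lie furthest to the right at 24h, and the negative values of Cxcl10 at 24h and Cxcl2 at 72h turn positive when libraries are scaled by their size alone.

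The first comparison set cells retained since photoconversion against cells that had arrived later. The members were chosen with earlier results of these data known, so the shares of all genes set beside their counts, here and below, are a description. At 24h, 3 of the 7 tested CXC chemokine genes passed, against 7.50% of all genes tested. Pf4 and Cxcl16 were higher in Kaede-red cells (2 genes, against 3.22% of all genes called higher), and Cxcl10 was lower (1 gene, against 4.28% called lower), a direction that turned with library size alone. Of these, Pf4 passed the filter on low counts only through the Kaede-red groups. The median log2 fold change was 0.39 over the 7 genes and 0.05 over all 9642. In library values, 3 genes had every Kaede-red above every Kaede-green library at 24h (Cxcl3, Cxcl16 and Pf4, against 7.09% of all genes) and 1 had every Kaede-red library below (Cxcl10, against 5.43%).

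At 72h, 4 of the 7 genes passed, against 16.8% of all genes. Pf4, Cxcl16 and Cxcl9 were higher in Kaede-red cells (3 genes, against 8.06% called higher) and Cxcl2 was lower (1 gene, against 8.76% called lower), a direction that turned with library size alone. Pf4 was again tested only through its Kaede-red counts. The median was 0.85 over the 7 genes and 0.03 over all genes. Non-overlapping libraries set Cxcl9, Cxcl16 and Pf4 above (against 13.0% of all genes) and Cxcl1 below (against 9.52%). Without Kaede-green 72h replicate 3, Cxcl16 and Pf4 alone passed (2 genes), with 1249 of 9826 genes called.

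Over both times, 6 of the 7 genes passed, against 20.3% of all genes. Cxcl11, the only other CXC ligand tested, did not pass. Pf4, Cxcl16, Cxcl3 and Cxcl9 were higher in Kaede-red cells (4 genes, against 10.05% called higher), and Cxcl2 and Cxcl10 were lower (2 genes, against 10.3% called lower), both of which turned with library size alone. Among those called higher, Pf4 and Cxcl3 passed the filter on low counts only through the Kaede-red groups. The median was 0.51 over the 7 genes and 0.06 over all genes. With the Rn45s share as a covariate, 156 genes were called over both times in place of 1959, and Pf4 and Cxcl16 were the 2 members among them.

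The second comparison set cells sorted 72h after the light against cells sorted at 24h. These came from different mice whose tumours also differed in age, so a rise or fall here is a difference between groups and not a change followed in the same cells. In Kaede-green cells 0 of the 7 genes and 0% of all genes passed in edgeR's quasi-likelihood test. At an unadjusted p under 0.05 there were 3 members (Cxcl2, Cxcl10 and Cxcl16) and 835 genes, and DESeq2 called 0 members and 12 genes. The log2 fold change of Cxcl2 was −0.85 ± 0.32 (edgeR quasi-likelihood, Benjamini-Hochberg adjusted p = 0.447) and that of Cxcl10 −0.49 ± 0.22 (adjusted p = 0.521), the latter turning to 0.31 with library size alone. The median was −0.28 over the 7 genes and 0.03 over all genes.

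In Kaede-red cells 3 of the 7 genes passed between 24h and 72h, against 8.68% of all genes. Cxcl9 rose (1 gene, against 4.92% called higher), and Cxcl2 and Pf4 fell (2 genes, against 3.76% called lower), with the same signs under each scaling tried. Non-overlapping libraries set Cxcl9 above (against 11.8% of all genes) and Cxcl1 and Cxcl2 below (against 8.76%). The median was −1.08 over the 7 genes and −0.01 over all genes. For Cxcl10 the log2 fold change was 0.48 ± 0.22 and did not pass (edgeR quasi-likelihood, Benjamini-Hochberg adjusted p = 0.173). The count of members that passed was 1 (Cxcl2) without Kaede-red 24h replicate 4, where 328 of 9803 genes were called. It was also 1 (Cxcl2) without Kaede-red 72h replicate 1, where 280 of 9750 genes were called. It was 5 when Kaede-green 24h replicate 4 was left out, where Cxcl1 and Cxcl3 passed too and 1108 of 9845 genes were called.

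Whether the difference by fluorescence itself changed between 24h and 72h was tested as an interaction. In edgeR's quasi-likelihood test 0 of the 7 genes passed, against 0.757% of all genes (73 genes). At an unadjusted p under 0.05 there were 3 members (Cxcl2, Cxcl10 and Cxcl16) and 1476 genes, and DESeq2 called 0 members and 290 genes. For Cxcl2 the interaction was −0.90 ± 0.44 (edgeR quasi-likelihood, Benjamini-Hochberg adjusted p = 0.319). Thus Cxcl10, which passed at 24h alone, and Cxcl2 and Cxcl9, which passed at 72h alone, were not shown to differ between the times by this test. With replicate blocks within each time point the interaction of Cxcl10 passed (1.05, adjusted p = 0.0382).

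Some of the directions above turned with library size alone. TMM factors ranged from 0.318 to 3.85, and with library size alone the median of all genes moved to 2.20 over both times, 2.33 at 24h, 2.04 at 72h, 0.74 in Kaede-green cells, 0.42 in Kaede-red cells and −0.34 for the interaction. Relative to that median, the library-size values at 24h were 1.95 for Cxcl16, 3.09 for Pf4, −1.004 for Cxcl10 and −0.46 for Cxcl2. At 72h they were 1.01 for Cxcl16, 2.23 for Pf4, 0.81 for Cxcl9, −1.25 for Cxcl2, −1.41 for Cxcl1 and −0.24 for Cxcl10. Over both times they were 1.46 for Cxcl16, 2.64 for Pf4, 1.20 for Cxcl3, 0.47 for Cxcl9, −0.64 for Cxcl10, −0.87 for Cxcl2 and −0.58 for Cxcl1. In Kaede-red cells between the times they were 0.88 for Cxcl9, −1.71 for Cxcl2 and −1.23 for Pf4. Each of these relative values had the sign of the TMM fit. Taking off the median removes much the same shift as TMM does, so the shared signs are not a separate check of the TMM directions.

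**Figure D3:**
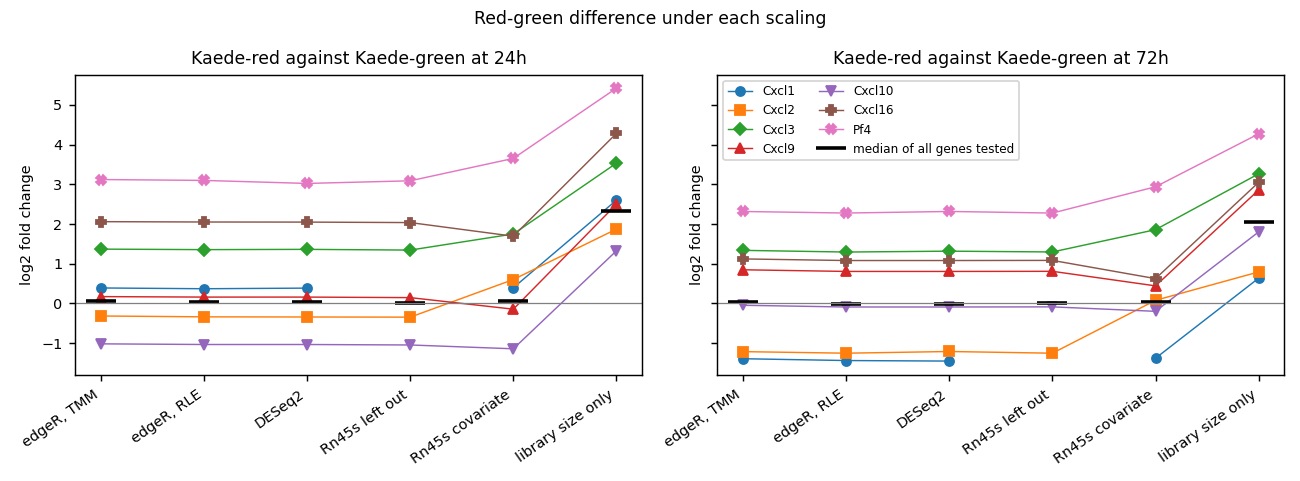
Log2 fold change of Kaede-red against Kaede-green cells (y axis) for the 7 tested CXC chemokine genes at 24h and at 72h under 6 scalings or covariates (x axis), with the median of all genes tested in each fit. With library size alone the median moves to 2.33 at 24h and 2.04 at 72h and all 7 genes lie above 0, whereas Cxcl2 and Cxcl10 are below 0 in the TMM fit at both times and Cxcl1 at 72h; Cxcl1 is absent where Rn45s was left out, because the filter on low counts then removed it.

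Levels were compared between genes as CPM per kb of the longest coding transcript. Cxcl10 came first in all 4 groups, at 91.5 ± 9.26 in Kaede-green 24h (SD, n = 4), 45.3 ± 7.32 in Kaede-red 24h, 64.8 ± 25.0 in Kaede-green 72h and 63.1 ± 9.16 in Kaede-red 72h. Cxcl14 came last in all 4. In Kaede-green 24h the second place was held by Cxcl2 (12.6 ± 2.53 CPM per kb), followed by Cxcl16 (7.06 ± 4.67), Pf4 (5.09 ± 4.71) and Cxcl9 (3.94 ± 1.72), whose SDs overlapped. In Kaede-red 24h the second place was held by Pf4 (38.7 ± 9.04 CPM per kb), within its spread of Cxcl10, followed by Cxcl16 (29.2 ± 5.06), Cxcl2 (10.1 ± 3.61) and Cxcl9 (4.41 ± 1.08).

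In Kaede-green 72h Cxcl16 (12.9 ± 2.59 CPM per kb) preceded Cxcl2 (6.96 ± 3.12), Cxcl9 (4.81 ± 0.673) and Pf4 (3.60 ± 1.67), and the last 3 were within their spread of each other. In Kaede-red 72h the order after Cxcl10 was Cxcl16 (28.0 ± 1.83 CPM per kb), Pf4 (18.8 ± 8.82), Cxcl9 (8.59 ± 1.60) and Cxcl2 (3.19 ± 1.52). Cxcl2 therefore held a higher rank than Cxcl9 in the first 3 groups and a lower one in Kaede-red 72h. Cxcl3 and Cxcl1 stayed between 0.577 and 3.60 CPM per kb in every group. Dividing by the length of all exons of the gene instead placed Pf4 (31.5) above Cxcl10 (27.2) in Kaede-red 24h and Cxcl3 last in Kaede-green 72h.

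The genes whose log2 CPM followed a member most closely over the 16 libraries are named as a description, since libraries share depth and group. For Cxcl16 they were Plekha2 (Pearson r = 0.96), Arrb2 (0.95) and Apoe (0.94), and for Pf4 they were Osbpl8 (0.89), Id2 (0.87) and the mannose receptor gene Mrc1 (0.87). For Cxcl2 they were the monocyte attractant gene Ccl2 (0.91), Fam96a (0.88) and Stk17b (0.87). For Cxcl10 they were Pnp (0.90), Sepw1 (0.84) and Pim1 (0.83), and for Cxcl9 they were Dock2 (0.92), Ptprj (0.90) and Vav1 (0.90). The 2 Cxcr3 ligands thus had different nearest genes. For Cxcl3 they were Hmox1 (0.91), Emp1 (0.82) and Adam9 (0.80), and for Cxcl1, with its low counts, Pcna (0.77), Btf3 (0.73) and AF251705 (0.72).

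Of the 7 other CXC ligands, Cxcl11 alone was abundant enough to test. Cxcl11 also binds Cxcr3 and averaged 17.8 ± 19.0 CPM in Kaede-green 24h (SD, n = 4), 11.4 ± 10.7 in Kaede-red 24h, 18.0 ± 9.71 in Kaede-green 72h and 9.80 ± 5.37 in Kaede-red 72h. It spread widely within groups, and over both times its difference by fluorescence did not pass the test (log2 fold change −0.69 ± 0.37, edgeR quasi-likelihood, Benjamini-Hochberg adjusted p = 0.193). Cxcl17 was at 0 in every library, and all 16 libraries together held 10 counts of Cxcl5, 34 of Cxcl12, 3 of Cxcl13, 4 of Cxcl15 and 69 of Ppbp.

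Of 8 CXC receptor genes, Cxcr4, the receptor of Cxcl12, was the only one tested. Over both times its log2 fold change by fluorescence was 0.00 and did not pass the test, and it fell in Kaede-red cells between 24h and 72h (−0.66 ± 0.21, edgeR quasi-likelihood, Benjamini-Hochberg adjusted p = 0.0418), with the same sign under each scaling tried. The Cxcr4 call was lost without any 1 of the 8 Kaede-red libraries (adjusted p from 0.0526 to 0.170), without a filter (0.133), with library size alone (0.820), with the Rn45s covariate (0.172) and with replicates 3 and 4 (0.133) or 1 and 2 (0.287) of Kaede-red 24h alone. Cxcr1 and Ackr1 were at 0 in every library, and Cxcr2, Cxcr3 and Cxcr6, the receptors of the chemokines described above, had 29, 42 and 31 counts in all.

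Of 7 interferon gamma pathway genes, 6 were tested, and Ifng itself had 6 counts, all of them in Kaede-red libraries. The signalling kinase gene Jak1 was higher in Kaede-red cells over both times (log2 fold change 0.51 ± 0.14, edgeR quasi-likelihood, Benjamini-Hochberg adjusted p = 0.00953) and at 72h (0.79 ± 0.20, adjusted p = 0.00460), both with the same sign under each scaling tried. At 24h the inhibitor gene Socs1 was lower in Kaede-red cells (−1.02 ± 0.32, edgeR quasi-likelihood, Benjamini-Hochberg adjusted p = 0.0460), or 1.31 with library size alone. In counts, 1 gene was higher over both times (against 10.05% of all genes), 1 was lower at 24h (against 4.28%) and 1 was higher at 72h (against 8.06%). The medians of the list were −0.16, −0.37 and 0.0986, against 0.06, 0.05 and 0.03 over all genes. Between 24h and 72h in Kaede-red cells, Jak1 (0.78 ± 0.19, adjusted p = 0.00934) and Irf1 (0.62 ± 0.18, adjusted p = 0.0275) rose (2 genes, against 4.92% of all genes), with a list median of 0.37 against −0.01.

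Leaving out libraries removed several of these calls. Socs1 was lost without Kaede-green 24h replicate 1 or 2, any Kaede-red 24h library, or Kaede-red 72h replicate 1, 2 or 3 (edgeR quasi-likelihood, Benjamini-Hochberg adjusted p from 0.0547 to 0.173). It was also lost without a filter (0.0505), with a minimum of 10 counts set for each library (0.0565), with the replicate block (0.0635) and with replicates 3 and 4 (0.0619) or 1 and 2 (0.312) of Kaede-red 24h alone. In Kaede-red cells the rise of Irf1 was lost without Kaede-red 24h replicate 3 or 4 or Kaede-red 72h replicate 1, 2 or 4 (adjusted p from 0.0676 to 0.0944), and that of Jak1 without Kaede-red 24h replicate 4 (0.0520). Both rises were lost with library size alone (Irf1 0.410, Jak1 0.377), with the Rn45s covariate (0.209 and 0.102) and with replicates 1 and 2 of Kaede-red 24h alone (0.420 and 0.379). With the Rn45s covariate Jak1 was 0.47 at 72h (adjusted p = 0.684) and 0.23 over both times (0.832), and with replicates 3 and 4 of Kaede-red 24h alone the adjusted p of Jak1 over both times was 0.0886.

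Of 12 genes of NF-kB inducers and feedback, 11 were tested. The inflammatory cytokine gene Il1b was lower in Kaede-red cells, with means of 257 ± 34.7 CPM in Kaede-green 24h (SD, n = 4), 131 ± 6.83 in Kaede-red 24h, 191 ± 32.4 in Kaede-green 72h and 104 ± 14.8 in Kaede-red 72h, although with library size alone this direction turned (1.22 over both times). Its log2 fold change was −0.93 ± 0.13 over both times (edgeR quasi-likelihood, Benjamini-Hochberg adjusted p = 3.68e-06), with −0.98 ± 0.19 for the 24h groups (adjusted p = 0.000912) and −0.88 ± 0.19 for those of 72h (adjusted p = 0.00112), and with library size alone 1.34 at 24h and 1.11 at 72h. The cytokine gene Tnf was higher in Kaede-red cells over both times (0.72 ± 0.18, adjusted p = 0.00461), as was the lipopolysaccharide receptor gene Tlr4 (0.58 ± 0.17, adjusted p = 0.0134), in each case with the same sign under each scaling tried. At 72h the subunit genes Nfkb1 (0.70 ± 0.22, adjusted p = 0.0256) and Rela (0.75 ± 0.26, adjusted p = 0.0415) were higher, again with the same sign under each scaling. Zfp36, which encodes a protein that speeds the decay of cytokine mRNAs, was at 24h lower in Kaede-red cells (−0.69 ± 0.19, edgeR quasi-likelihood, Benjamini-Hochberg adjusted p = 0.0216), or 1.62 with library size alone.

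In counts, this list had 2 genes higher and 1 lower over both times (against 10.05% and 10.3% of all genes), 2 lower at 24h (against 4.28%), and 2 higher and 1 lower at 72h (against 8.06% and 8.76%). Its medians were 0.03, −0.24 and 0.23 against 0.06, 0.05 and 0.03 over all genes. The Il1b calls held in every fit that left out 1 library and were lost with the Rn45s covariate, at −0.77 (edgeR quasi-likelihood, Benjamini-Hochberg adjusted p = 0.0767), −0.84 (0.0631) and −0.70 (0.343). Tlr4 was lost without Kaede-green 72h replicate 3 (adjusted p = 0.0512), Nfkb1 without Kaede-green 72h replicate 1, 2 or 3 or Kaede-red 72h replicate 1 or 4 (0.0564 to 0.0779), Rela without Kaede-green 72h replicate 1, 2 or 3 or Kaede-red 72h replicate 1, 2 or 4 (0.0769 to 0.121), and Zfp36 without Kaede-green 24h replicate 2 or Kaede-red 24h replicate 2 or 3 (0.0571 to 0.0812). In Kaede-red cells Nfkb1 rose between the times (0.79 ± 0.21, adjusted p = 0.0175), which was lost without Kaede-red 24h replicate 3 or 4 or Kaede-red 72h replicate 1 or 4 (0.0563 to 0.0758), with library size alone (0.354), with the Rn45s covariate (0.214) and with replicates 1 and 2 of Kaede-red 24h alone (0.412).

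The Rn45s covariate also removed the calls of Tnf (edgeR quasi-likelihood, Benjamini-Hochberg adjusted p = 0.210), Tlr4 (0.693), Nfkb1 at 72h (0.897), Rela (0.925) and Zfp36 at 24h (0.0519). Rela was also lost with RLE factors (0.0549), with the replicate block (0.0537) and with blocks within each time point (0.0507). Zfp36 at 24h was also lost without a filter (0.110) and with replicates 3 and 4 (0.0781) or 1 and 2 (0.178) of Kaede-red 24h alone, and Tlr4 with replicates 3 and 4 alone (0.0673).

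Of the 3 genes for proteases that act on CXC chemokines (Adam10, Adam17 and Dpp4), Adam17, a sheddase whose relative Adam10 releases Cxcl16 from the membrane, was higher in Kaede-red cells over both times (log2 fold change 0.78 ± 0.17, edgeR quasi-likelihood, Benjamini-Hochberg adjusted p = 0.000763) and at 72h (0.92 ± 0.23, adjusted p = 0.00412), with the same sign under each scaling tried (1 gene each, against 10.05% and 8.06% of all genes). Adam10 and Dpp4 passed at neither time. Both Adam17 calls held in every fit that left out 1 library and were lost with the Rn45s covariate (0.64, adjusted p = 0.332, and 0.76, adjusted p = 0.482).

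**Figure D4:**
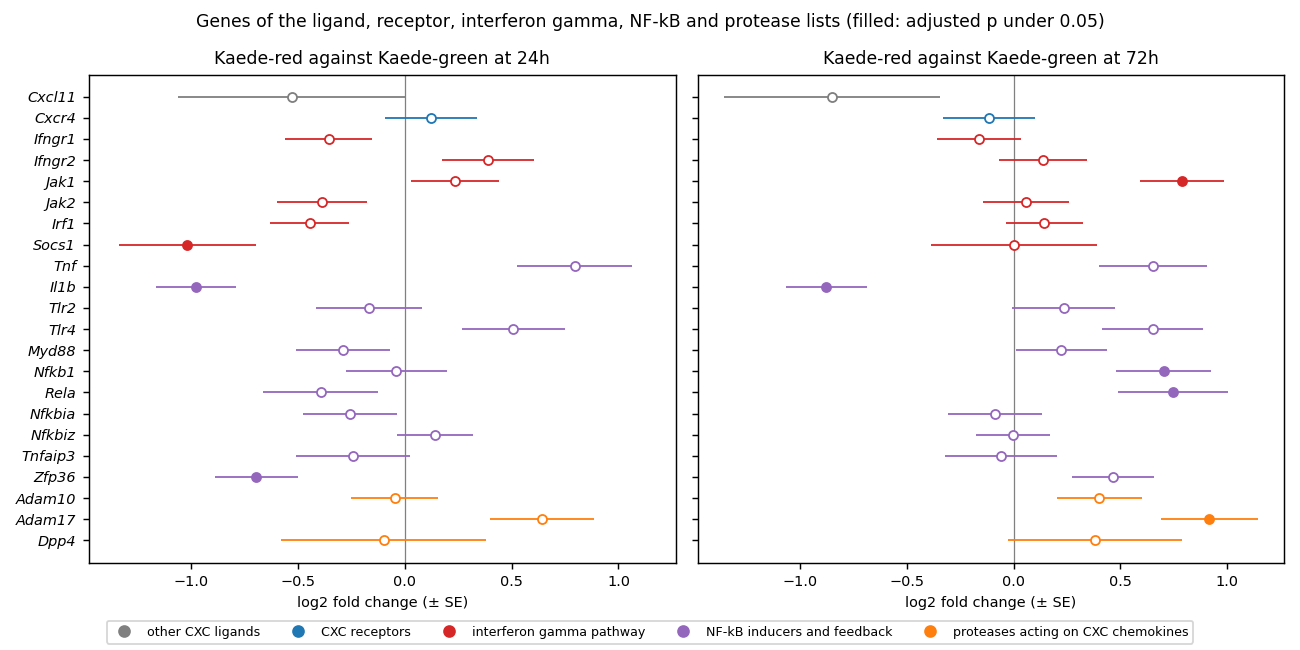
Log2 fold change with its SE (x axis) of the 22 tested genes of the pathway lists (y axis, grouped by list) at each time in Kaede-red against Kaede-green cells, filled where the adjusted p was under 0.05. Il1b is below 0 at both times, and Socs1 and Zfp36 at 24h, 3 genes that turn positive when libraries are scaled by their size alone, while Jak1, Nfkb1, Rela and Adam17 are above 0 at 72h.

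The sorted cells carried Ptprc and Itgam, which encode CD45 and CD11b of their gate, and other myeloid genes. All 7 myeloid genes (Ptprc, Itgam, Csf1r, Adgre1, Cd68, Lyz2 and Cd14) were detected in all 16 libraries, with summed levels of 816 to 1980 CPM in Kaede-green 24h, 489 to 883 in Kaede-red 24h, 942 to 1353 in Kaede-green 72h and 1004 to 1272 in Kaede-red 72h. With library size alone the median sum was higher in Kaede-red libraries at each time. It was 554 CPM in Kaede-green 24h against 1407 in Kaede-red 24h, and 616 in Kaede-green 72h against 2680 in Kaede-red 72h. Adgre1, which encodes the macrophage marker F4/80, was higher in Kaede-red cells over both times (log2 fold change 1.53 ± 0.15, edgeR quasi-likelihood, Benjamini-Hochberg adjusted p = 8.06e-09), with the same sign under each scaling tried. The lysozyme gene Lyz2 was lower (−1.24 ± 0.20, adjusted p = 1.97e-05), or 0.86 with library size alone. Lyz2 was the most abundant and gave most of the sum in Kaede-green 24h (1219 ± 467 of 1513 CPM on average).

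Of these 7 genes, 4 were called higher in Kaede-red cells over both times (against 10.05% of all genes) and 1, Lyz2, lower (against 10.3%). The 4 were Adgre1, Itgam (log2 fold change 0.44 ± 0.13, edgeR quasi-likelihood, Benjamini-Hochberg adjusted p = 0.0189), Csf1r (0.95 ± 0.17, adjusted p = 0.000135) and Cd68 (1.14 ± 0.16, adjusted p = 1.99e-06). At 24h Adgre1 and Cd68 were higher (2 genes, against 3.22%) and Lyz2 lower (1 gene, against 4.28%), and at 72h these 4 genes and Ptprc were higher (5 genes, against 8.06%). The genes called higher kept their sign under each scaling tried. The Rn45s covariate removed the calls of Itgam, Csf1r, Cd68 and Ptprc. Itgam over both times was also lost without replicate 3 of Kaede-green 24h (adjusted p = 0.0512) or of Kaede-green 72h (0.0587) and with replicates 3 and 4 of Kaede-red 24h alone (0.124), and Ptprc at 72h without Kaede-green 72h replicate 3 (0.0733). Cd68 at 24h was also lost without Kaede-green 24h replicate 1, 3 or 4 or Kaede-red 24h replicate 1 or 2 (0.0532 to 0.125) and with replicates 3 and 4 of Kaede-red 24h alone (0.488). Adgre1 and Cd68 were thus called higher in Kaede-red cells in the same comparisons as Cxcl16 and Pf4, whereas Csf1r did not pass at 24h (0.32 ± 0.25, adjusted p = 0.5002), and the part of the myeloid mixture in the chemokine differences was not tested.

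Markers of platelets and megakaryocytes were near 0, and no gene of this list passed the filter to be tested. Between 0 and 7 of 9 such genes were detected in a library, Gp9 was at 0 in all 16, and the most abundant, Ppbp, had 2 counts in Kaede-green and 67 in Kaede-red libraries. Its means were 0.0637 ± 0.127 CPM in Kaede-green 24h (SD, n = 4), 0.654 ± 0.474 in Kaede-red 24h, 0.0650 ± 0.130 in Kaede-green 72h and 0.296 ± 0.178 in Kaede-red 72h. The summed level of the list in replicates 1 to 4 was 0.558, 0, 1.02 and 0.818 CPM in Kaede-green 24h, 2.11, 1.34, 0.181 and 1.62 in Kaede-red 24h, 0, 0.611, 1.70 and 0.520 in Kaede-green 72h, and 1.14, 0.782, 0.756 and 0.906 in Kaede-red 72h. Kaede-red and Kaede-green libraries overlapped in this sum at each time. With library size alone the sums at 24h were 0.223 to 5.69 CPM in Kaede-red (median 2.67) and 0 to 0.370 in Kaede-green libraries (median 0.230), and the Kaede-red 72h sums (1.21 to 3.47 CPM) lay above the Kaede-green 72h sums (0 to 1.09). The part of platelets in the Pf4 difference was not tested.

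Neutrophil markers, of which 3 to 8 of 10 were detected and 2 tested (Csf3r and Mmp8), summed to 9.42 to 12.3 CPM in Kaede-green 24h, 9.62 to 14.7 in Kaede-red 24h, 10.4 to 12.7 in Kaede-green 72h and 18.8 to 23.9 in Kaede-red 72h. Their most abundant gene was Csf3r, which also occurs in monocytes. At 72h it was higher in Kaede-red cells (log2 fold change 1.12 ± 0.24, edgeR quasi-likelihood, Benjamini-Hochberg adjusted p = 0.000941; 1 gene, against 8.06% of all genes), with the same sign under each scaling tried. This call was lost with the Rn45s covariate (adjusted p = 0.400). Csf3r was also called higher over both times (1 gene, against 10.05% of all genes). There its log2 fold change was 0.60 to 0.73 when 1 library was left out, and the call was lost under 2 of 11 other alternatives. Ngp was at 0 in all 16 libraries and Retnlg and Camp in 14. Csf3r alone made up 16.4 ± 0.815 CPM of the mean sum of 21.6 in Kaede-red 72h. Mmp8 had 3.41 ± 1.01 CPM there against 1.37 ± 0.971 in Kaede-green 72h and did not pass the test (1.29 ± 0.47, adjusted p = 0.0538). The other 8 genes were not tested. Of these, Mmp9 (0.726 ± 0.208 against 0.404 ± 0.523 CPM), Ltf (0.266 ± 0.434 against 0) and Retnlg (0.108 ± 0.190 against 0) had higher means in Kaede-red 72h than in Kaede-green 72h. S100a8 (0.172 ± 0.211 against 1.11 ± 0.563), S100a9 (0.318 ± 0.113 against 1.15 ± 0.977) and Cxcr2 (0.251 ± 0.241 against 0.294 ± 0.432) had lower means, an order that turned with library size alone for S100a9 (0.737 against 0.708) and Cxcr2 (0.517 against 0.161), and Camp and Ngp were at 0 in both groups. The summed level was highest in the group where Cxcl9 was highest and Cxcl2 lowest, and its part in those results was not tested.

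Fibroblast markers, of which 5 to 7 of 7 were detected with Col3a1 the most abundant, summed to 41.8 to 55.2 CPM in all 8 Kaede-green libraries, to 20.03, 20.9, 37.7 and 38.6 in Kaede-red 24h replicates 1 to 4, and to 12.5 to 19.5 in Kaede-red 72h. On this scale the highest Kaede-red sum was below the lowest Kaede-green sum, and the 2 Kaede-red 24h libraries with the higher Rn45s share had the higher sums. With library size alone the order at 24h turned, at 15.2 to 22.4 CPM in Kaede-green against 45.9 to 54.0 in Kaede-red, and at 72h the ranges overlapped.

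Of the 4 fibroblast genes tested, none passed at 24h, with log2 fold changes of −0.67 for Col1a1 (edgeR quasi-likelihood, Benjamini-Hochberg adjusted p = 0.171), −1.08 for Col1a2 (0.0652), −0.63 for Col3a1 (0.134) and 0.18 for Pdgfra (0.887). At 72h all 4 were lower in Kaede-red cells (against 8.76% of all genes), at −1.56 ± 0.27 for Col1a1 (edgeR quasi-likelihood, Benjamini-Hochberg adjusted p = 0.0001003), −1.70 ± 0.35 for Col1a2 (0.000765), −1.63 ± 0.25 for Col3a1 (2.65e-05) and −1.51 ± 0.44 for Pdgfra (0.0155). Over both times Col1a1 (−1.12 ± 0.20, adjusted p = 8.48e-05), Col1a2 (−1.39 ± 0.25, 0.000113) and Col3a1 (−1.13 ± 0.18, 1.77e-05) were lower (3 genes, against 10.3%). With library size alone the values turned, to 0.42, 0.16, 0.27 and 0.56 at 72h and to 0.91, 0.66 and 0.89 over both times, and the Rn45s covariate removed all 7 calls. Pdgfra was also lost without a filter (0.0568) and without Kaede-green 72h replicate 1 (0.0621).

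Endothelial markers (2 to 5 of 5 detected, Kdr the most abundant) summed to 10.04 to 15.98 CPM in Kaede-green 24h, 17.8 to 22.5 in Kaede-red 24h, 9.77 to 19.0 in Kaede-green 72h and 21.9 to 36.8 in Kaede-red 72h, a sum that was higher in Kaede-red libraries at each time on this scale and with library size alone. Tek and Emcn were near 0, with group means of at most 0.0930 and 0.0769 CPM with library size alone, so the sum rested on Kdr, Pecam1 and Cdh5.

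Of the 5 endothelial genes, 3 were tested, and over both times 2 were called higher (against 10.05% of all genes) and 1 lower (against 10.3%). Kdr (log2 fold change 1.06 ± 0.17, edgeR quasi-likelihood, Benjamini-Hochberg adjusted p = 1.77e-05) and Pecam1 (1.02 ± 0.25, adjusted p = 0.00308) were higher in Kaede-red cells, with the same sign under each scaling tried, and both calls were lost with the Rn45s covariate (0.211 and 0.443). Cdh5 was lower over both times (−1.42 ± 0.49, adjusted p = 0.0377), or 0.63 with library size alone, with means of 1.51 ± 1.07 CPM in Kaede-green 24h (SD, n = 4), 0.483 ± 0.362 in Kaede-red 24h, 2.28 ± 1.71 in Kaede-green 72h and 0.913 ± 0.468 in Kaede-red 72h. The Cdh5 call was lost without Kaede-green 24h replicate 2, 3 or 4, Kaede-red 24h replicate 1, 2 or 3, Kaede-green 72h replicate 3, or Kaede-red 72h replicate 1, 3 or 4 (adjusted p from 0.0538 to 0.141). It was also lost without a filter (0.0609), with the replicate block (0.0705), with blocks within each time point (0.109), with the Rn45s covariate (0.905) and with replicates 3 and 4 of Kaede-red 24h alone (0.207).

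At 72h Kdr (1.34 ± 0.23, edgeR quasi-likelihood, Benjamini-Hochberg adjusted p = 9.42e-05) and Pecam1 (1.36 ± 0.34, adjusted p = 0.00438) were higher in Kaede-red cells (2 genes, against 8.06% of all genes), and both calls were lost only with the Rn45s covariate (0.222 and 0.438). At 24h Kdr just passed (0.78 ± 0.24, adjusted p = 0.0465; 1 gene, against 3.22%). Cdh5 passed at neither time alone (adjusted p = 0.217 at 24h and 0.181 at 72h). The Kdr call at 24h was lost in 12 of 16 fits, namely those without any 1 of the 8 libraries of 24h, Kaede-green 72h replicate 1, or Kaede-red 72h replicate 1, 2 or 4 (0.0540 to 0.162). It was also lost with RLE factors (0.0520), without a filter (0.0523), in the groups compared alone (0.0677), with the replicate block (0.0565), with blocks within each time point (0.0663), with the Rn45s covariate (0.511) and with replicates 3 and 4 (0.284) or 1 and 2 (0.0615) of Kaede-red 24h alone. The sort required CD45, yet genes of the endothelial and the fibroblast list were detected, and the part of either list in the chemokine differences was not tested.

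Marker genes also moved between 24h and 72h in Kaede-red cells, where Cxcl9 rose and Cxcl2 and Pf4 fell. Of the myeloid list Itgam (log2 fold change 0.98 ± 0.19, edgeR quasi-likelihood, Benjamini-Hochberg adjusted p = 0.00183), Csf1r (1.11 ± 0.24, 0.00410) and Ptprc (0.67 ± 0.19, 0.0237) rose (3 genes, against 4.92% of all genes). Csf3r of the neutrophil list rose too (1.00 ± 0.22, 0.00431), and Col3a1 of the fibroblast list fell (−1.12 ± 0.25, 0.00483; 1 gene, against 3.76%). All 5 kept their sign under each scaling tried, and all 5 calls were lost with library size alone (adjusted p from 0.255 to 0.625) and with replicates 1 and 2 of Kaede-red 24h alone (0.179 to 0.589). The Rn45s covariate removed those of Csf1r (0.0571), Ptprc (0.198), Csf3r (0.0571) and Col3a1 (0.166). Ptprc was also lost without Kaede-red 24h replicate 3 or 4 or Kaede-red 72h replicate 1, 2 or 4 (0.0542 to 0.116). The part of these genes in the chemokine changes was not tested.

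The remaining lists were near the limit of detection. Tumour epithelial markers summed to 0 to 3.68 CPM with Cdh1 the most abundant, T and NK cell markers to 0 to 5.73 with Ncr1, dendritic cell markers to 1.23 to 5.09 with Cd209a, and B cell markers to 0 to 2.45 with Cd79b. Of the 2 dendritic cell genes tested, Ccr7, a receptor of migrating dendritic cells, was at 0 in all 4 Kaede-green 24h libraries against 1.64 ± 0.661 CPM in Kaede-red 24h, and at 72h it had 0.450 ± 0.409 in Kaede-green against 1.67 ± 0.714 in Kaede-red cells. Ccr7 had 7 counts in Kaede-green against 285 in Kaede-red libraries, so it could pass the filter on low counts only through the Kaede-red groups. No result is drawn from its test. The other gene, Cd209a, averaged 1.49 ± 1.88 CPM in Kaede-green 24h (SD, n = 4), 1.04 ± 0.495 in Kaede-red 24h, 1.51 ± 0.711 in Kaede-green 72h and 1.28 ± 0.821 in Kaede-red 72h. It passed at neither time, with −0.34 ± 0.53 over both times (edgeR quasi-likelihood, Benjamini-Hochberg adjusted p = 0.705), and with library size alone its mean was higher in Kaede-red cells at each time (2.12 against 0.495 and 3.27 against 0.938). Of the T and NK cell list, 5 of 6 genes were in the files. The part of these lists in the results was not tested.

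**Figure D5:**
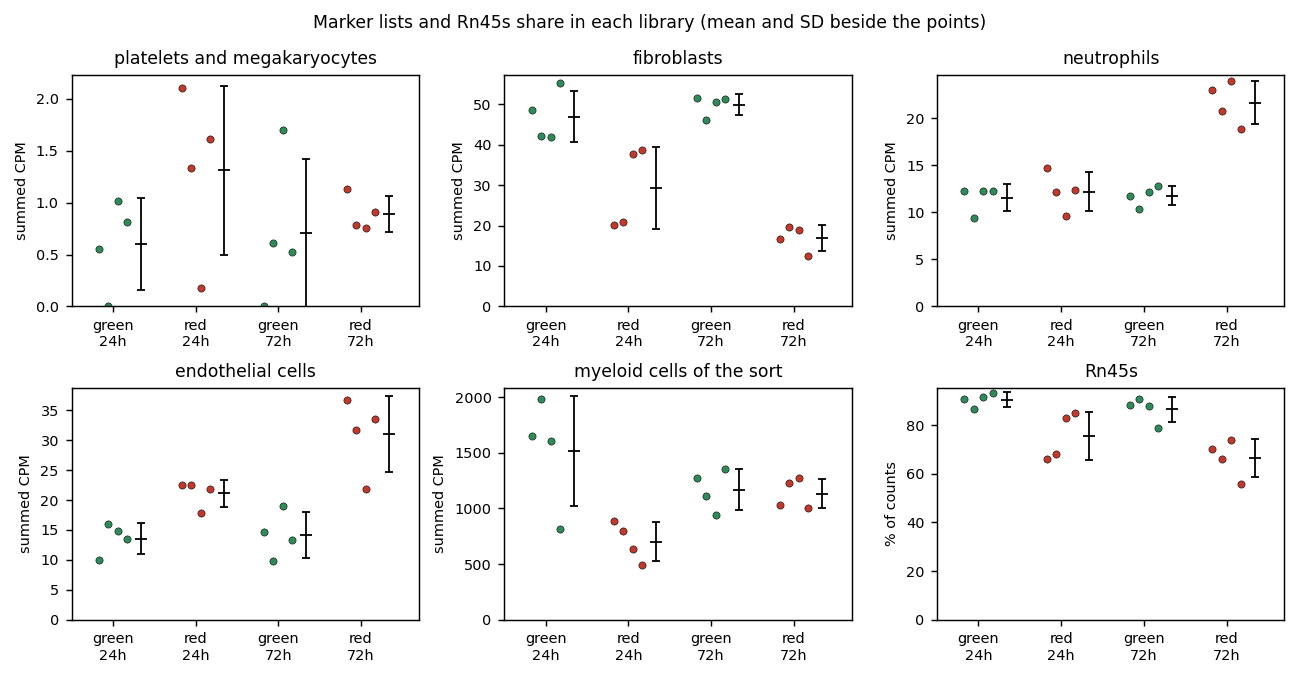
Summed CPM of 5 marker lists and the Rn45s share of counts in percent (y axes, from 0) in each of the 16 libraries, grouped by Kaede fluorescence and time (x axis). Platelet markers stay at or below 2.11 CPM on the TMM scale (5.69 with library size alone), the fibroblast sum is lower in Kaede-red libraries on the TMM scale (at 24h the order turns with library size alone), the endothelial sum is higher although Cdh5 over both times is lower on the TMM scale, and the Rn45s share separates Kaede-red 24h into 2 pairs.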

How the data were processed

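Total RNA of 16 sorted samples was made into libraries with a stranded pico-input kit. The authors trimmed reads with Trim Galore, checked them with FastQC, mapped these with HISAT2 (mm10) and obtained reads per gene with featureCounts, and deposited whole-number counts for 24421 genes; tool versions and the strand setting of the counting are not given in the sources used here. The deposited counts were tested with edgeR 4.0.16 (limma 3.58.1, R 4.3.3): filterByExpr, which kept 9642 genes, TMM factors, a mean for each group and the quasi-likelihood test with Benjamini-Hochberg adjustment over all genes tested, called at an adjusted p under 0.05. The prior count in log2 CPM was 2. The fits were also run on simulated data, whose outcome is not reported here. Tables and plots used Python 3.11.15, pandas 2.3.3, numpy 2.4.6 and matplotlib 3.10.9.

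The named genes are the 8 members, the list genes called over both times, at 24h or at 72h, and the 3 genes most like each member among genes with a mean log2 CPM of at least 4. Cxcr4, Irf1, the marker genes given with a test and list genes called between times were chosen after their values were seen. A list gene is not reported here and was left out of the list counts. The members and lists were chosen with earlier results of these data known. Alternatives were DESeq2 1.42.0, RLE factors, library size alone, no filter, at least 10 counts in every library, the groups compared alone, replicate blocks (across all libraries, and within each time point), Rn45s left out, the Rn45s share as a covariate, and leaving out each library. Kaede-red 24h by replicates 3 and 4, or 1 and 2, alone was added after seeing the data. Replicates of a group differed by more than sampling noise (chi-square per gene of 3.21 to 95.6).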

Additional observations from a re-analysis of the deposited data

Results flagged for a closer look

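Each library of a group of 4 was compared with the other 3 for the 8 chemokine genes and 9 list genes, in 68 combinations of gene and group, by its gap to the nearest library as a share of the whole range of the group, set against Dixon's critical value for groups of 4. Chance sets apart about 1 in 20 groups. The comparison was first run on log2 of CPM plus 0.5 and was changed to log2 CPM with a prior count of 2 after that first result had been seen, which added Cxcl3 in Kaede-green 24h replicate 4; the other 6 combinations of gene and library stood apart on both of these scales and on CPM.

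Kaede-red 24h replicate 4 was above its group in Cxcl1, at 2.39 CPM against 1.34, 1.41 and 1.45. Kaede-green 24h replicate 4, the library with the fewest counts outside Rn45s (468092), was apart in 3 genes: Cxcl3 was at 0 CPM against 1.53, 1.67 and 2.46, Cxcl14 was at 0.818 CPM, which is 2 counts, against 0 in the other 3, and Jak1 was at 12.3 CPM against 18.4, 19.0 and 19.6. Among the list genes, Nfkb1 was high in Kaede-green 72h replicate 4 (14.3 CPM against 12.1, 12.2 and 12.4), Rela was high in Kaede-green 24h replicate 2 (13.5 CPM against 6.54, 7.25 and 7.39), and Zfp36 was high in Kaede-red 72h replicate 1 (132 CPM against 108, 109.9 and 111).

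The difference between Kaede-red and Kaede-green cells changed between 24h and 72h for Zfp36, by 1.16 ± 0.27 (SE) on the log2 scale (edgeR quasi-likelihood test, Benjamini-Hochberg adjusted p = 0.0445). Its means were 130 ± 17.8 and 80.5 ± 9.9995 CPM in the Kaede-green and the Kaede-red group at 24h, and 83.3 ± 20.4 and 115 ± 11.1 at 72h (SD, n = 4). This call was lost without Kaede-green 24h replicate 1, 2 or 3, Kaede-red 24h replicate 2, 3 or 4, Kaede-green 72h replicate 1 or 2, or any Kaede-red 72h library (adjusted p from 0.0519 to 0.109). It was also lost with library size alone (0.74, adjusted p = 1.00), with the Rn45s covariate (1.11, 0.0533) and with replicates 1 and 2 of Kaede-red 24h alone (1.03, 0.328).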

How the results depend on the processing

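Of the log2 fold changes of the 7 tested chemokine genes in 6 comparisons, 624 kept their direction and side of the threshold when 1 library was left out, 27 lost and 3 gained a call and 18 changed sign; under the other alternatives 388 kept both, 24 lost and 10 gained a call and 25 changed sign. For the calls of genes of the pathway and marker lists, in any of the 6 comparisons and whether or not given in the report, the numbers were 758, 90, 0 and 0, and 485, 97, 0 and 15. Except where stated, the cause was not tested. Depth limits Cxcl1, Cxcl3 and Cxcl14, and a CPM of 1 stood for as few as 1.79 counts.

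Leaving out 1 library gave 4 to 6 members called over both times, 3 at 24h, 2 to 4 at 72h, 1 to 5 between the Kaede-red groups, and 0 between the Kaede-green groups and for the interaction. Of the 9534 to 10172 genes tested in these fits, 1582 to 2082 were called over both times, 503 to 765 at 24h and 1146 to 1910 at 72h. Between the Kaede-red groups 280 to 1108 were called, between the Kaede-green groups 0 to 2, and for the interaction 2 to 155. The log2 fold changes that changed sign ranged from −0.0267 to 1.35 for Cxcl1, −0.0821 to 0.39 for Cxcl9 (both at 24h), −0.24 to 0.19 for Cxcl10 at 72h, −0.18 to 1.19 for Cxcl1 and −0.78 to 0.27 for Pf4 in Kaede-green cells, −0.11 to 0.0729 for Cxcl16 in Kaede-red cells, and −0.44 to 0.34 for the interaction of Cxcl3, and none of these 7 passed.

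With library size alone, where all genes shift, 7 members were called at 24h (and 9054 of 9642 genes) and 0 in Kaede-red cells (and 9 genes; edgeR quasi-likelihood test). Values that changed sign were 1.62 for Cxcl1, 1.33 for Cxcl2 and 1.56 for Cxcl10 over both times, 1.87 for Cxcl2 and 1.33 for Cxcl10 at 24h, 0.637 for Cxcl1, 0.79 for Cxcl2 and 1.80 for Cxcl10 at 72h, 0.31 for Cxcl10 and 0.35 for Pf4 in Kaede-green cells, and 0.30 for Cxcl16 in Kaede-red cells. Among other genes they were 1.22, 1.34 and 1.11 for Il1b (both times, 24h, 72h), 1.31 for Socs1 and 1.62 for Zfp36 at 24h, 0.86 over both times and 0.54 at 24h for Lyz2, 0.63 for Cdh5, 0.91 for Col1a1, 0.66 for Col1a2 and 0.89 for Col3a1 over both times, and 0.42 for Col1a1, 0.16 for Col1a2, 0.27 for Col3a1 and 0.56 for Pdgfra at 72h.

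With the Rn45s share as a covariate, 2 members were called over both times, 1 at 72h and 1 in Kaede-red cells, with 156, 101 and 110 genes in all; Cxcl2 was 0.60 at 24h, 0.0799 at 72h and 0.34 over both, Cxcl9 −0.14 at 24h, and the interaction of Cxcl3 0.11. The covariate differs between the Kaede groups, so their parts cannot be told apart fully. In the groups compared alone 5 members were called in Kaede-red cells, with 1604 of 10080 genes in place of 837 of 9642. With Kaede-red 24h by replicates 3 and 4 alone, chosen after seeing the data, 3 members and 1224 of 10396 genes were called over both times, Cxcl2 was 0.0353 and Cxcl9 −0.0799 at 24h, and Cxcl16 was 0.13 in Kaede-red cells; by replicates 1 and 2 alone 0 members and 9 of 10385 genes were called in Kaede-red cells (edgeR quasi-likelihood test) and Cxcl3 was 0.16 for the interaction. Fewer libraries entered these fits. Without a filter Cxcl10 was 0.0982 at 72h, Cxcl16 0.0163 in Kaede-red cells and Cxcl3 0.0245 for the interaction.

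Whether equal replicate numbers mark 1 tumour is not stated in the sources used, and correlations did not settle it. Those of deviations from the group means were 0.0493 to 0.153 for equal numbers and −0.132 to 0.148 for others at 24h, and −0.0183 to 0.0287 and −0.0556 to 0.0596 at 72h. At 24h all 4 equal-number values were above 0, but Kaede-green 24h replicate 2 was closest to Kaede-red 24h replicate 1 (0.148) and Kaede-green 24h replicate 3 to Kaede-red 24h replicate 4 (0.0598). The replicate block moved none of the 42 member results across the threshold or 0. With a replicate block within each time point 1 member was called for the interaction (Cxcl10, 1.05, among 165 genes), Cxcl10 was 0.0252 at 72h and the interaction of Cxcl3 0.0519; this fit gives no comparison between times within a colour. With at least 10 counts in every library 4 members could be tested, without Rn45s 6, and in the groups compared alone 6 at 24h, 6 at 72h, 7 in Kaede-red and 4 in Kaede-green cells.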
